A study of Mus musculus with 11 samples.

Results

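Complement is a cascade of secreted proteins, and 9 of its component genes were followed here in bulk RNA sequencing of orthotopic mouse pancreatic tumours: C1qa, C1qb, C1qc, C1ra, C1s1, C4b, C2, C3 and Cfb. They were picked by name for their place in the classical and alternative pathways, and were 9 of the 54232 genes listed in the count table. All 9 passed the filter on low counts, as did 16536 genes in total. Tumours came from 6 KO mice (replicates A to F) and 5 WT mice (replicates A to E), all female C57BL/6 littermates that were heterozygous for RosaCreERT, a tamoxifen-inducible Cre recombinase expressed from the ubiquitous Rosa26 locus, and all were given tamoxifen as adults. KO hosts were Pkn2 fl/fl and WT hosts Pkn2 +/+. Each host received 1000 TB32048 cells, a syngeneic carcinoma line from a female mouse with pancreatic cancer, injected in Matrigel into the pancreas. The carcinoma cells kept their own Pkn2 in every tumour, so the deletion lay in the host, and it was not limited to fibroblasts, macrophages or any other host cell type.

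In the classical pathway, the recognition molecule C1q binds antibody complexes or damaged cells and activates the proteases C1r and C1s, which cleave C4 and C2 to form an enzyme that splits C3. In the alternative pathway, C3b joins with factor B to form a further C3-splitting enzyme, which factor I and other regulators hold in check. Liver cells make most plasma complement, but within tumours C1q is typically a macrophage product, whereas C1r, C1s and C3 are made by fibroblasts and other stromal cells and can also be made by carcinoma cells. In bulk tumour RNA, fewer cells of a type and less RNA per cell cannot be told apart, and transcripts from host and carcinoma cells are summed.

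Positions are given on GRCm38. The C1q chain genes are adjacent on the minus strand of chromosome 4, with C1qb (ENSMUSG00000036905) at chr4:136880129-136886187, C1qc (ENSMUSG00000036896) at chr4:136889804-136893065 and C1qa (ENSMUSG00000036887) at chr4:136895917-136898803. C1ra (ENSMUSG00000055172, chr6:124512405-124523443, plus strand) and C1s1 (ENSMUSG00000038521, chr6:124530345-124542359, minus strand) are neighbours on chromosome 6. C4b (ENSMUSG00000073418, chr17:34728380-34743882), Cfb (ENSMUSG00000090231, chr17:34856374-34862518) and C2 (ENSMUSG00000024371, chr17:34862604-34898265) share the major histocompatibility region on the minus strand of chromosome 17, on which C3 (ENSMUSG00000024164, chr17:57203970-57228136) also lies. All 9 are annotated as protein coding.

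Promoter sequence is shown for a macrophage-type member (C1qb) and for C1s1 and C3, whose RNA varied together across tumours, so that the regions ahead of their start sites can be compared. Sequences are the 250 bases before the RefSeq start site (GRCm38.p6), written 5′ to 3′ on the strand of the gene, for C1qb chr4:136886201-136886450 (minus strand), for C1s1 chr6:124542360-124542609 (minus strand) and for C3 chr17:57228137-57228386 (minus strand). Capitals mark matches on either strand to letters recognised by 5 inflammatory or myeloid factors.
C1qb: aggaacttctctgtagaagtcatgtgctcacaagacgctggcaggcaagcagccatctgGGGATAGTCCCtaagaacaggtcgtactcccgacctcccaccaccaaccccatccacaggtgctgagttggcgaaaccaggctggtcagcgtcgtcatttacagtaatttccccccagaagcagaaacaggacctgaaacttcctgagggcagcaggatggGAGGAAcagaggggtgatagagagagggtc
C1s1: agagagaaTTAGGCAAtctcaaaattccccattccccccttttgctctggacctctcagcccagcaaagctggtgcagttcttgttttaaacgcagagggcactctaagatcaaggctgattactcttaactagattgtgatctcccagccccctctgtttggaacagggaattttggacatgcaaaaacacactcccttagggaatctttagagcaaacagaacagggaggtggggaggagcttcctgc
C3: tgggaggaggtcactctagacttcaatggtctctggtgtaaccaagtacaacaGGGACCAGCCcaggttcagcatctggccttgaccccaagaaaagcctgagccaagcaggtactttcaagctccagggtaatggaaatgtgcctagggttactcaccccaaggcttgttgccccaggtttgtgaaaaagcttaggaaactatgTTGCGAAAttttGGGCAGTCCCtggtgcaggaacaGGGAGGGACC

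The C3 window held 3 matches to the NF-kB letters, GGGA and CC with any 4 bases between them, whose first bases lay at -197, -33 and -10 from the start site, and 1 match to the C/EBP letters TTNNGCAA at -45. The C1qb window held 2 NF-kB matches that overlapped on opposite strands, from -191 and -190, and a match to the PU.1 letters GAGGAA at -30. The C1s1 window held a C/EBP match at -242. None of the 3 windows held the interferon-response letters TTCNNNGAA (GAS) or a pair of GAAA with any 2 bases between them (ISRE). Of 32851 promoter windows of the same length, 17.6% held the NF-kB letters, 9.56% the C/EBP letters, 23.3% the PU.1 letters, 7.02% the GAS letters and 2.98% the ISRE letters. A match describes the letters in a window and is not a measured binding site. Promoter windows were matched for 5 of the 9 genes, and those of C1qc and C1ra are not shown because they ran into annotated first exons.

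Total counts ranged from 16294128 (WT B) to 31121422 (WT E). Levels are given as counts scaled to a common effective library size (CPM), that is, after TMM scaling for library composition, and 3 counts corresponded to between 0.0887 CPM (WT E) and 0.25 CPM (WT B). Pkn2 RNA was between 80.1 and 108 CPM in KO tumours and between 62.9 and 138 CPM in WT tumours, with means of 96.6 ± 9.34 (SD, n = 6) and 96.7 ± 34.6 (SD, n = 5), so bulk levels did not separate the genotypes. WT A, B and C stood apart from the other tumours. Ribosomal RNA took 1.31%, 6.39% and 1.40% of their counts against 0.241% to 0.765% elsewhere, and their deviation from the average tumour fell with gene length across genes (Spearman -0.497, -0.446 and -0.172, against 0.0965 to 0.367 elsewhere). The components and the list of other complement genes are therefore also given without them.

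Across the 9 components, mean RNA was higher in KO than WT tumours for all 9, from a log2 fold change of 0.02 for C2 to 1.50 for C4b, with a median of 0.97 against -0.03 over all tested genes. No component passed an adjusted p of 0.05 in edgeR's quasi-likelihood test, a threshold that 3 of 16536 genes (0.0181%) passed. At an unadjusted p under 0.05, 5 of 9 components were higher in KO tumours (C1ra, C1s1, C4b, C3 and Cfb) and none was lower, where the same threshold held 8.57% of all tested genes on the higher side and 15.5% on the lower side. DESeq2 on the same genes called C1s1, C4b and Cfb higher (adjusted p = 0.0349, 0.0124 and 0.0361) and none lower, with 3.43% of all tested genes called higher and 5.99% lower. The 3 C1q chains and C2 did not reach the unadjusted threshold with all 11 tumours.

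**Figure D1:**
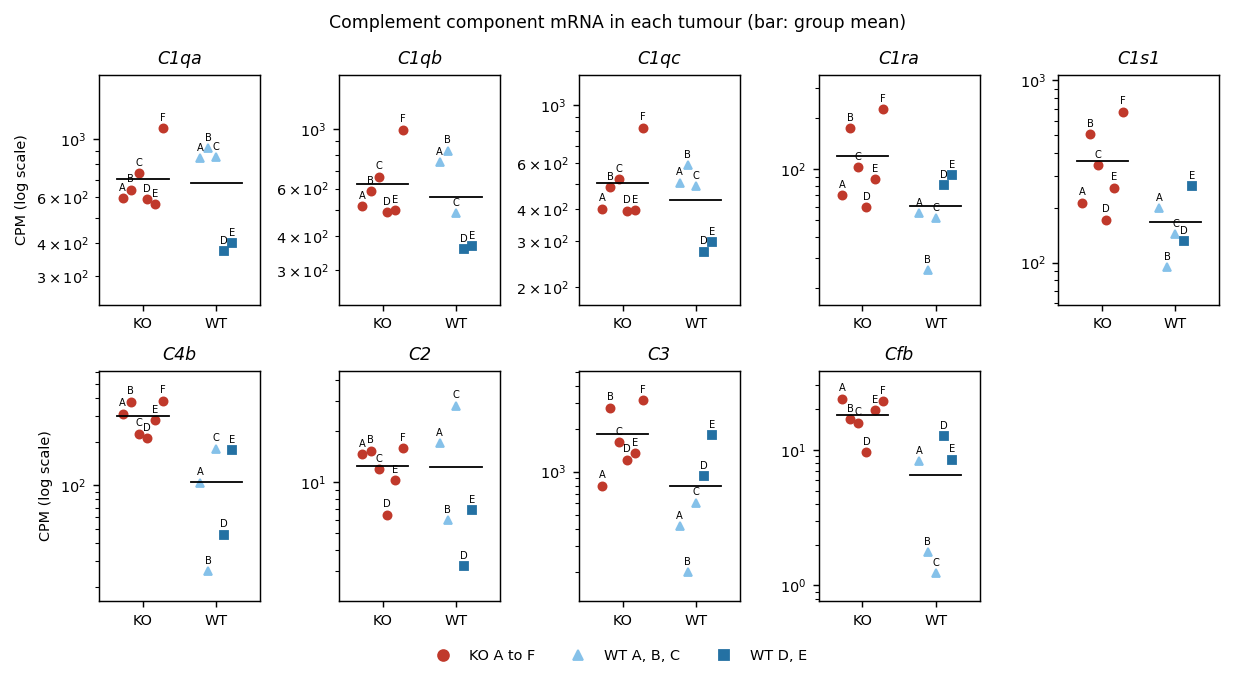
Level of each complement component in each tumour, in CPM on a log axis whose range differs between panels. Points are tumours with their replicate letters, circles are KO, triangles WT A to C, squares WT D and E, and bars are group means. All 3 C1q chains of WT D and E lie below every KO tumour and those of WT A and B above at least 4 KO tumours, while C4b is the panel in which all KO tumours lie above all WT tumours.

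The C1q chains were considered first. C1q is assembled from 3 chains, encoded by C1qa, C1qb and C1qc. C1qa RNA ranged from 566 CPM through a median of 618 to 1102 CPM in KO tumours, and was 846, 926, 852, 374 and 400 CPM in WT A to E. The highest KO value was that of KO F, and WT A to C lay above 5 of the 6 KO tumours, whereas WT D and E lay below all of them. Group means were 706 ± 204 CPM in KO (SD, n = 6) and 679 ± 269 CPM in WT (SD, n = 5), a log2 fold change of 0.06 (SE 0.29; adjusted p = 0.923 in edgeR). The interval of 2 SE around the fold ran from 0.699 to 1.55, so a difference of about that size in either direction was not excluded at this spread.

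C1qb means were also close between genotypes. C1qb ranged from 490 through 553 to 993 CPM in KO tumours and was 754, 830, 486, 357 and 369 CPM in WT A to E. Unlike for C1qa, WT C lay below every KO tumour, as did WT D and E. Group means were 626 ± 192 and 559 ± 220 CPM, with a log2 fold change of 0.16 (SE 0.28, adjusted p = 0.744 in edgeR). C1qc ranged from 394 through 443 to 822 CPM in KO tumours and was 505, 591, 489, 274 and 298 CPM in WT A to E, with a log2 fold change of 0.22 (SE 0.26; adjusted p = 0.622 in edgeR). The KO and WT ranges overlapped for every chain. The chains varied together, with Pearson's r of log2(CPM + 1) over the 11 tumours of 0.91 between C1qa and C1qb, 0.96 between C1qa and C1qc and 0.95 between C1qb and C1qc, given as a description because they share libraries.

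The near equality of C1q means between genotypes was lost when WT A, B and C were left out together. Without them, the log2 fold change was 0.87 for C1qa, 0.79 for C1qb and 0.82 for C1qc (SE 0.26, 0.28 and 0.29; edgeR unadjusted p = 0.00888, 0.0185 and 0.0200), and none passed after adjustment (adjusted p = 0.160, 0.198 and 0.203). In that fit 6 of the 9 components (the C1q chains, C2, C4b and Cfb) and 8.21% of 17605 tested genes were higher in KO with unadjusted p under 0.05. Removing each tumour's trend with gene length gave 0.55, 0.64 and 0.51 for C1qa, C1qb and C1qc in all 11 tumours (edgeR unadjusted p = 0.0168, 0.00548 and 0.0242), and the ribosomal RNA share as covariate gave 0.46, 0.53 and 0.52, none at an unadjusted p under 0.05. Without KO F, C1qa was -0.12 and C1qb -0.02. For C1qb, leaving out only WT A or only WT B raised the value to 0.29 and 0.35, but leaving out only WT C lowered it to 0.12. The C1q transcripts are short, with 1040, 1088 and 1931 counted exon bases for C1qa, C1qb and C1qc, and the part of the length trend in their WT levels was not tested beyond these fits.

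Within a tumour, the ratio of C1qb to C1qa was 0.830 to 0.917 in KO tumours and 0.891, 0.896, 0.570, 0.956 and 0.922 in WT A to E. WT C was thus low in C1qb relative to C1qa, and the other 10 tumours lay within 0.830 to 0.956. The ratio of C1qc to C1qa was 0.667 to 0.758 in KO tumours and 0.597, 0.638, 0.574, 0.733 and 0.746 in WT A to E, so that WT A to C were the lowest 3 tumours.

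**Figure D2:**
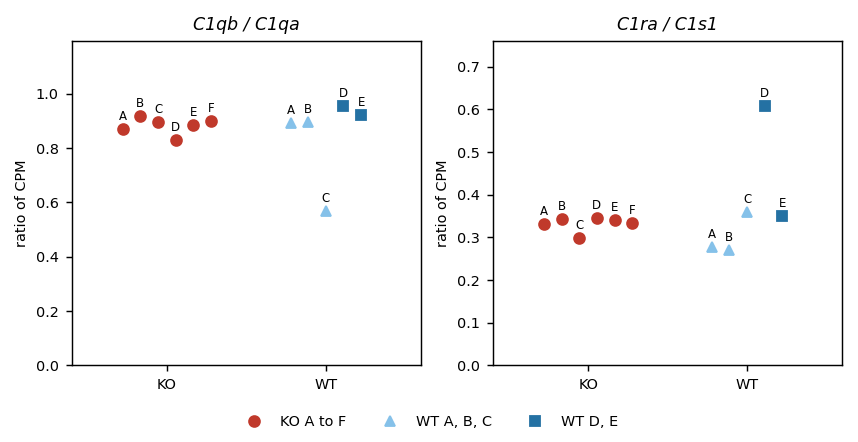
Ratio of C1qb to C1qa (left) and of C1ra to C1s1 (right) within each tumour, both as ratios of CPM on axes that start at 0. Points are tumours with their replicate letters, coloured by genotype with WT A to C and WT D and E marked apart; WT C stands at 0.570 on the left and WT D at 0.609 on the right.

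C1ra and C1s1, which encode the proteases of the C1 complex, were next compared. C1s1 RNA ranged from 172 through a median of 301 to 673 CPM in KO tumours and was 199, 94.1, 144, 132 and 263 CPM in WT A to E. KO F and KO B were highest, WT B was lowest, and the groups overlapped because WT A and WT E exceeded KO D. Means were 361 ± 194 CPM in KO (SD, n = 6) and 166 ± 65.9 CPM in WT (SD, n = 5), a log2 fold change of 1.12 (SE 0.37; adjusted p = 0.115 in edgeR, unadjusted p = 0.00993). C1ra ranged from 59.7 through 95.1 to 225 CPM in KO tumours and was 55.2, 25.5, 51.6, 80.2 and 92.3 CPM in WT A to E, with means of 120 ± 65.4 and 61.0 ± 26.1 CPM and a log2 fold change of 0.97 (SE 0.39; adjusted p = 0.157 in edgeR, unadjusted p = 0.0259). The same 2 tumours, KO B and KO F, were the highest for both proteases.

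C1ra and C1s1 stood in similar proportion in most tumours. Their ratio was 0.298 in KO C and 0.331 to 0.346 in the other KO tumours, and 0.278, 0.271, 0.358, 0.609 and 0.351 in WT A to E, so that WT D had more C1ra for its C1s1 than any other tumour. A single read from part of the C1ra transcript cannot be placed uniquely, since 26.1% of its read-length windows also occur in the paralogue C1rb. C1s1 shared 2.83% of such windows with C1s2. Reads were paired, and whether the mate would place such a read was not tested. C1rb itself was at no more than 1.01 CPM in any tumour, C1s2 at no more than 1.53 CPM. The differences in the proteases were smaller without WT A to C, at 0.48 for C1ra and 0.88 for C1s1 (SE 0.48 and 0.53; edgeR unadjusted p = 0.347 and 0.134). With the ribosomal RNA share as covariate they were 0.34 and 0.62 (edgeR unadjusted p = 0.326 and 0.122), and removal of the length trend left them at 1.02 and 1.18.

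C4 and C2 are the substrates of C1s. C4b ranged from 210 through a median of 297 to 383 CPM in KO tumours and was 104, 25.5, 179, 45.7 and 174 CPM in WT A to E. Every KO tumour exceeded every WT tumour, which was the case for 1 of the 9 components and for 1.59% of all tested genes, while 2.01% of tested genes were lower in every KO tumour. Means were 298 ± 73.1 CPM in KO (SD, n = 6) and 106 ± 70.7 CPM in WT (SD, n = 5), a log2 fold change of 1.50 (SE 0.43; adjusted p = 0.0976 in edgeR, unadjusted p = 0.00437), or a fold of 2.82 with a 2 SE range of 1.54 to 5.16. C4b kept a log2 fold change of 1.45 without WT A to C (edgeR unadjusted p = 0.0128, adjusted p = 0.178), 1.40 with the length trend removed and 0.93 with the ribosomal RNA covariate (unadjusted p = 0.0575).

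The neighbouring paralogue C4a, annotated as a processed transcript, showed no such difference. It ranged from 1.10 to 2.54 CPM in KO and from 0.548 to 3.93 CPM in WT tumours (log2 fold change -0.44, SE 0.43; adjusted p = 0.547 in edgeR), and 8.17% of the read-length windows of C4b occur in C4a. The ratio of C4b to C4a was 89.2 to 340 in KO tumours, whereas WT tumours had 9.56 to 83.4, and these ranges did not overlap. C4b alone already separated the groups, and C4a rested on 14 to 88 reads per tumour, so this ratio is not a separate result. C2 had the smallest difference of the 9 components, at 14.7, 15.3, 11.9, 6.46, 10.2 and 15.9 CPM in KO A to F and 17.0, 6.01, 28.2, 3.21 and 6.86 CPM in WT A to E. WT C was the highest tumour and WT D the lowest, and the log2 fold change was 0.02 (SE 0.47; adjusted p = 0.985 in edgeR). It was 0.58 without WT C and 1.30 without WT A to C (SE 0.41, edgeR unadjusted p = 0.0113, adjusted p = 0.173).

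C3 is the component on which all complement pathways converge, and it was the most abundant of the 9 in CPM in KO tumours. It ranged from 800 through a median of 1486 to 3165 CPM in KO tumours and was 418, 199, 607, 928 and 1813 CPM in WT A to E. KO F and KO B were again highest, but WT E exceeded 4 of the 6 KO tumours, so the groups overlapped. Means were 1826 ± 944 CPM in KO (SD, n = 6) and 793 ± 630 CPM in WT (SD, n = 5), a log2 fold change of 1.20 (SE 0.52; adjusted p = 0.181 in edgeR, unadjusted p = 0.0366). The value turned on WT E in one direction and on WT A to C in the other. Without WT E it was 1.76 and passed (edgeR adjusted p = 0.0406), a fit in which C1s1 (1.35, adjusted p = 0.0457) and C4b (1.75, adjusted p = 0.0371) also passed and 3.63% of all tested genes were called higher. Without WT A to C it was 0.42 (SE 0.51, edgeR unadjusted p = 0.436), and with the ribosomal RNA covariate 0.50 (unadjusted p = 0.142).

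Cfb encodes factor B, the protease partner of C3b. It was scarce, at 9.55 to 23.8 CPM with a median of 18.2 in KO tumours and at 8.25, 1.75, 1.23, 12.6 and 8.45 CPM in WT A to E. Of the WT tumours, WT D alone exceeded a KO tumour, KO D. Means were 18.1 ± 5.23 CPM in KO (SD, n = 6) and 6.46 ± 4.86 CPM in WT (SD, n = 5), a log2 fold change of 1.47 (SE 0.51; adjusted p = 0.124 in edgeR, unadjusted p = 0.0128). It was 0.79 without WT A to C (edgeR unadjusted p = 0.0476) and 0.88 with the ribosomal RNA covariate (unadjusted p = 0.120). The annotation behind the authors' counts is not given in the sources used here, and in GENCODE M21 the readthrough gene Gm20547 covers 79.5% of the exon bases of Cfb and 42.8% of those of C2 on the same strand. If the authors counted with these gene models, reads that lie there fit 2 genes and were left uncounted, so that levels of Cfb and C2 in CPM are lower limits. Gm20547 had a count of 0 in every tumour. On that assumption Cfb was left with 579 bases and C2 with 2216 bases in which a read could be counted.

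**Figure D3:**
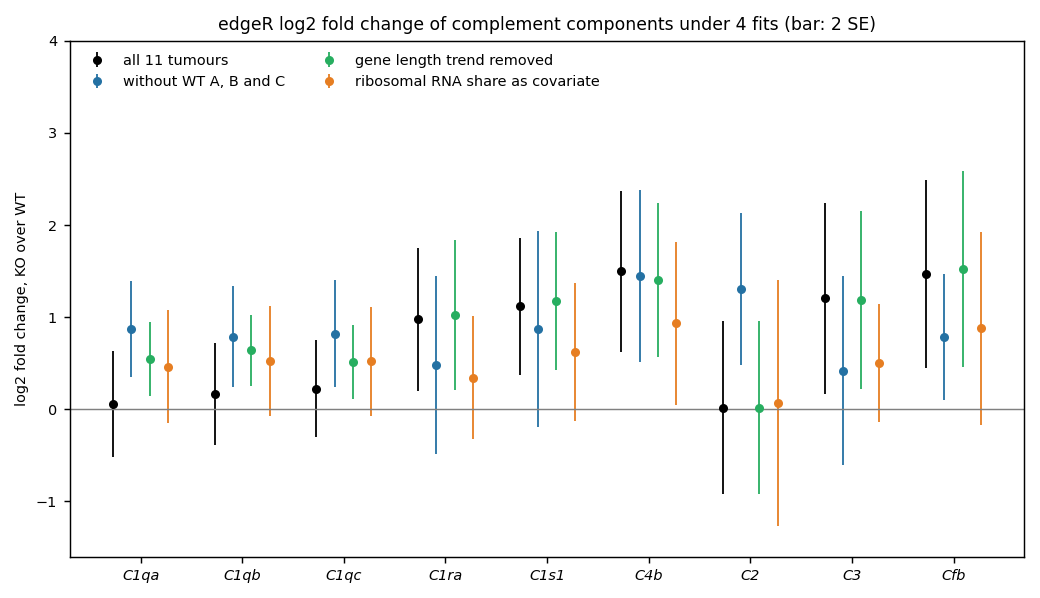
edgeR log2 fold change (KO over WT) of each component in 4 fits, with bars of 2 SE: all 11 tumours, without WT A to C, with the gene length trend removed, and with the ribosomal RNA share as covariate. C4b lies at 0.93 or above in all 4, the C1q chains move from 0.06 to 0.22 in the first fit to 0.79 to 0.87 without WT A to C, and C3 moves from 1.20 to 0.42.

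Levels were compared between genes per kilobase of countable exon. C1qa stood at 679 ± 196 CPM per kb in KO and 653 ± 259 in WT tumours, and C1qb at 575 ± 176 and 514 ± 202, and within each of the 11 tumours C1qb was below C1qa per kb, at 0.545 times its level in WT C and 0.794 to 0.914 times in the others. C3 followed in KO tumours at 355 ± 183 CPM per kb, overlapping C1qc at 261 ± 85.4, whereas in WT tumours C3 was at 154 ± 122 and C1qc at 223 ± 71.7. C1s1 (116 ± 61.9 in KO, 53.2 ± 21.0 in WT) was above C1ra (40.3 ± 21.9 and 20.5 ± 8.76), with C4b between them in KO tumours at 52.4 ± 12.8 and below both in WT tumours at 18.6 ± 12.4. On the gene models assumed above, Cfb was at 31.2 ± 9.03 and 11.2 ± 8.40 CPM per kb and C2 lowest at 5.60 ± 1.64 and 5.53 ± 4.66. Over the longest annotated transcript in place of countable exon, C1qc came to 418 in KO and 358 in WT tumours, and Cfb to 6.57 and 2.35 CPM per kb.

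To set C1q against components usually ascribed to stroma, the mean log2(CPM + 1) of the 3 C1q chains was compared with that of C1ra, C1s1 and C3 in each tumour. The C1q mean less the mean of these 3 was 1.11, -0.15, 0.72, 1.06, 0.62 and 0.30 in KO A to F and 2.03, 3.27, 1.82, 0.63 and -0.0045 in WT A to E. WT A to C lay above all KO tumours, whereas WT D and E lay within the KO range. The mean difference was 0.610 ± 0.476 in KO (SD, n = 6) against 1.55 ± 1.28 in WT (SD, n = 5). Per kb of countable exon, on the same log2 scale, the C1q mean was the higher in all 11 tumours, by 1.33 to 2.58 in KO A to F and by 3.49, 4.70, 3.28, 2.09 and 1.47 in WT A to E. As a ratio of single genes, C1s1 to C1qb was 0.352 to 0.865 in KO tumours and 0.264, 0.113, 0.296, 0.369 and 0.714 in WT A to E. The contrast was a description and was not tested between genotypes, and the 3 tumours that carried it were those with the highest ribosomal RNA shares and negative length trends, whose part in it was not tested. The cells that made these transcripts were not measured. Over all 11 tumours C1s1 had Pearson's r of 0.33 with C1qb and 0.54 with fibroblast markers. Neither had an adjusted p under 0.05 in permutation tests. Without WT A to C these were 0.83 and 0.54, as given with the correlations.

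**Figure D4:**
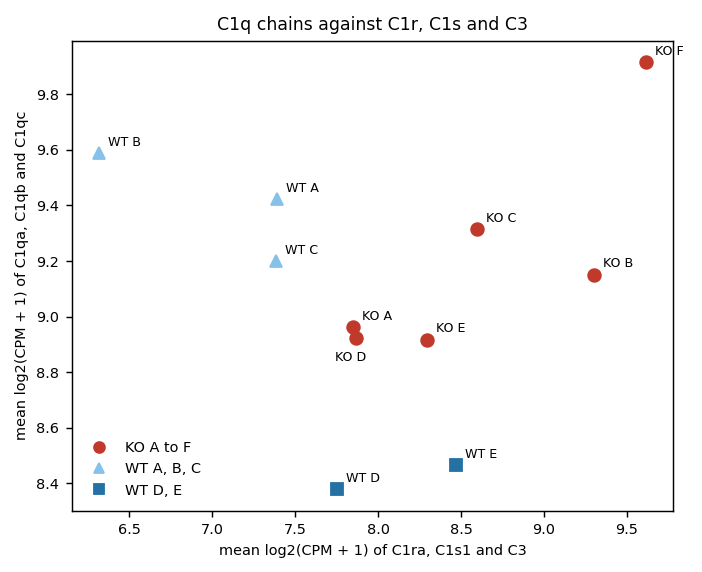
Mean log2(CPM + 1) of C1qa, C1qb and C1qc (vertical axis) against that of C1ra, C1s1 and C3 (horizontal axis) in each of the 11 tumours, with KO circles, WT A to C triangles and WT D and E squares. WT A to C lie at left, with the lowest means of C1ra, C1s1 and C3. WT A and B are also high in C1q, whereas the C1q mean of WT C (9.20) lies between KO B (9.15) and KO C (9.32). Among the other 8 tumours both means are highest in KO F.

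Relations across tumours were tested for 7 pairs fixed for this purpose, with permutation tests of log2(CPM + 1) and Benjamini-Hochberg adjustment over the 7. C1s1 and C3 varied together, with Pearson's r of 0.87 (n = 11, permutation p = 0.00054, adjusted p = 0.00378) and Spearman's rho of 0.87 (permutation p = 0.00087, adjusted p = 0.00609). The relation remained at r = 0.78 without KO B and KO F, at 0.91 without WT A to C (n = 8) and at 0.92 within KO tumours (n = 6). The C1q chain C1qb and C1s1 had r = 0.33 (permutation p = 0.320, adjusted p = 0.373, rho = 0.33 with permutation p = 0.328) and r = 0.42 without KO F and WT B, but r = 0.83 without WT A to C (n = 8, permutation p = 0.0113, adjusted p = 0.0263) and 0.85 within KO tumours (n = 6, exact permutation p = 0.0167). C1qb and C3 had r = -0.11 (permutation p = 0.747, rho = 0.02 with permutation p = 0.968), -0.20 without KO F and WT B, 0.63 without WT A to C (permutation p = 0.0899, adjusted p = 0.157) and 0.74 within KO tumours. C3 and Cfb had r = 0.70 (permutation p = 0.0175, adjusted p = 0.0612) and rho = 0.58 (permutation p = 0.0650, adjusted p = 0.114), but r was 0.54 without WT A and WT B and 0.10 both without WT A to C and within KO tumours, so the relation rested on WT A to C.

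The last 3 pairs set components against cell markers. C1qb and the mean of 10 macrophage markers had r = 0.59 (permutation p = 0.0578, adjusted p = 0.101) and rho = 0.55 (permutation p = 0.0824, adjusted p = 0.115), and r = 0.93 without WT A to C (n = 8, permutation p = 0.000818, adjusted p = 0.00573) and 0.94 within KO tumours (n = 6, exact permutation p = 0.0167). C3 and the mean of 10 fibroblast markers had r = 0.58 (permutation p = 0.0576, adjusted p = 0.101) and rho = 0.71 (permutation p = 0.0171, adjusted p = 0.0598), and C1s1 and the fibroblast markers r = 0.54 (permutation p = 0.0877, adjusted p = 0.123) and rho = 0.61 (permutation p = 0.0521, adjusted p = 0.114). Without the 2 tumours farthest from the median, these 3 correlations were 0.57, 0.64 and 0.51. Both fibroblast correlations without WT A to C were similar to those over all tumours, at 0.60 for C3 and 0.54 for C1s1, and within KO tumours they were 0.49 and 0.42. In both of these subsets C1s1 was less correlated with the fibroblast markers than with C1qb (0.54 against 0.83, and 0.42 against 0.85). Over all 11 tumours the order was the reverse (0.54 against 0.33). These differences were not tested, and the KO tumours are part of both subsets.

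Among 14889 tested genes with a mean of at least 1 CPM, the 5 whose log2(CPM + 1) followed C1qb most closely over the 11 tumours were Spi1 (r = 0.96), which encodes the myeloid transcription factor PU.1, Tnfaip8l2 (0.96), Gm5831 (0.95), Gm2a (0.95) and Cd302 (0.94). For C1s1 they were Tbkbp1 (0.98), Laptm5 (0.96), Prdm1 (0.96), Ctsc (0.96) and Entpd1 (0.95). C3 was followed most closely by Atp2b4 (0.98), Hip1 (0.98), Lrp4 (0.97), Fnbp1 (0.97) and Csf1 (0.96), the last a macrophage growth factor. For Cfb they were Dcp1b (0.97), Gm8806 (0.97), Nsmaf (0.96), Slc25a12 (0.96) and Clic4 (0.94). These are the highest of many correlations and share libraries and depth, so they are given with no test.

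A list of 52 other complement genes, of which 51 were found and 35 passed the filter, was then read from the same fit. Mean RNA was higher in KO tumours for 27 of the 35 and lower for 8, with a median log2 fold change of 0.48. None passed an adjusted p of 0.05 in edgeR, 10 were higher and 1 lower at an unadjusted p under 0.05, against the 8.57% and 15.5% of all tested genes, and DESeq2 called Masp1, Fcnb, Cr2 and Itgb2 higher and C1qbp lower. The counts rested in part on WT A to C. Without them, 37 of the listed genes were tested, with 3 higher (Fcna, Fcnb and Cfd) and 2 lower (Cfi and C1qbp) at an unadjusted p under 0.05, none after adjustment, and a median log2 fold change of 0.34. In that fit 8.21% of all tested genes were higher and 9.01% lower. Of the genes below, Masp1 then had a log2 fold change of 0.89, Cr2 1.46, Itgb2 0.63, Itgam 0.86, C6 0.99 and C4bp 0.77. Colec11 (1.31) and Vsig4 (2.25) were larger than with all tumours (0.89 and 1.52). None of these had an unadjusted p under 0.05 in that fit, and C1qbp was at -0.32 (unadjusted p = 0.00837 in edgeR). The paralogue C1rl had 0.89 with all tumours (unadjusted p = 0.0134 in edgeR) and 0.70 without WT A to C (unadjusted p = 0.0700 in edgeR).

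Of the recognition genes of the lectin pathway, 5 of 9 were tested. At an unadjusted p under 0.05, 3 were higher and none lower, against 8.57% and 15.5% of all tested genes. Masp1, a protease of that pathway, ranged from 9.03 through 17.6 to 25.2 CPM in KO tumours and was 2.73, 1.17, 6.93, 10.3 and 7.71 CPM in WT A to E (log2 fold change 1.52, SE 0.47; adjusted p = 0.105 in edgeR). Fcnb, a ficolin made by myeloid cells, was 22.5, 5.83, 10.5, 13.9, 4.63 and 0.322 CPM in KO A to F and 0.0434 to 0.25 CPM in WT tumours, where 1 to 8 reads were counted (edgeR adjusted p = 0.0605). It was 1 of the 2 related genes without overlap between groups, 1 higher and 1 lower of the 35 tested. Over all tested genes, 1.59% were higher and 2.01% lower without overlap, so these counts were near that share. For Fcnb, KO F, with 8 reads, lay just above the WT range. Colec11, a soluble collectin, had a log2 fold change of 0.89 (SE 0.40; adjusted p = 0.199 in edgeR). The mannose-binding lectin genes Mbl1 and Mbl2 had at most 1 read in any tumour.

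In the alternative pathway, Cfd, encoding factor D, which cleaves factor B and is an adipocyte product, was uneven. It ranged from 1.61 through 25.9 to 72.1 CPM in KO tumours and was 0.608, 37.8, 0.147, 0 and 0.207 CPM in WT A to E (log2 fold change 2.11, SE 1.39; adjusted p = 0.362 in edgeR). Of 6 tested adipocyte markers, 3 were higher in KO with unadjusted p under 0.05, against 8.57% of all tested genes. The list summed to 29.5 to 69.1 CPM in KO and 30.7 to 44.2 CPM in WT tumours. Lep was below 1 CPM in every tumour, and the part of adipose tissue in the Cfd values was not tested. Cfp, encoding properdin, which stabilises the alternative enzyme, was at 130 ± 42.5 CPM (KO) and 106 ± 26.4 CPM (WT) (log2 fold change 0.30, SE 0.25; adjusted p = 0.466 in edgeR).

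Of 7 terminal components, 3 were tested. C6, a part of the membrane attack complex, was at 12.1 ± 6.46 CPM (KO) and 6.17 ± 3.04 CPM (WT) (log2 fold change 0.97, SE 0.40; adjusted p = 0.167 in edgeR), and Hc, encoding C5, and C8g did not reach an unadjusted p of 0.05 (log2 fold changes 0.63 and -1.02). C7, C8a, C8b and C9 were below the filter, at no more than 0.834 CPM in any tumour.

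Of 11 fluid-phase regulators, 6 were tested. Only C4bp, the C4b-binding protein (log2 fold change 1.19, SE 0.54, adjusted p = 0.198 in edgeR), was higher at an unadjusted p under 0.05, as were 8.57% of all tested genes. Serping1, the inhibitor of C1r and C1s, was at 447 ± 176 CPM (KO) and 327 ± 120 CPM (WT) (log2 fold change 0.45, SE 0.30; adjusted p = 0.362 in edgeR). Cfi, encoding the protease factor I, which cleaves C3b and C4b, had the lowest log2 fold change of the list, -1.04 (SE 0.51; adjusted p = 0.228 in edgeR), with 31.1 to 116 CPM in KO and 34.6 to 299 CPM in WT tumours. Clu, encoding clusterin, was the most abundant complement-related gene in CPM at 3533 ± 1301 in KO and 5050 ± 1703 in WT tumours (log2 fold change -0.52, SE 0.33; adjusted p = 0.347 in edgeR). None of the 5 tested membrane regulators reached an unadjusted p of 0.05, with log2 fold changes from -0.04 for Cd59b to 0.53 for Cd46.

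All 11 receptors and binding proteins on the list were tested. At an unadjusted p under 0.05, 4 were higher and 1 lower, where all tested genes gave 8.57% higher and 15.5% lower. Cr2, the receptor for C3 fragments on B cells and follicular dendritic cells, was at 1.58 to 4.94 CPM in KO tumours and at 0.0434, 0.0834, 0.147, 0.196 and 2.07 CPM in WT A to E, where the first 4 rested on 1 to 5 reads (log2 fold change 2.52, SE 0.80; adjusted p = 0.108 in edgeR). All 8 B cell markers were higher at an unadjusted p under 0.05, against 8.57% of all tested genes. Their summed level was 58.2 to 142 CPM in KO and 15.3 to 55.1 CPM in WT tumours, and their part in the Cr2 values was not tested. Itgb2 and Itgam, the subunits of complement receptor 3 on myeloid cells, had log2 fold changes of 1.02 (SE 0.31; adjusted p = 0.102 in edgeR) and 0.91 (SE 0.31; adjusted p = 0.121 in edgeR), the latter with 68.7% of its exon bases overlapped by Gm49368. Vsig4, a macrophage receptor for C3b, was at 4.72 CPM in KO D and 2.59 CPM in KO A, whereas the other 4 KO tumours, at 0.524 to 0.853 CPM, lay within the WT range of 0.313 to 1.34 CPM. Its log2 fold change was 1.52 (SE 0.66; adjusted p = 0.183 in edgeR), and 0.88 without KO D (unadjusted p = 0.141 in edgeR). C1qbp, a mainly mitochondrial protein first isolated by its binding to C1q, was the only related gene lower in every KO tumour, as were 2.01% of all tested genes. It was at 109 to 126 CPM in KO tumours against 199, 254, 163, 141 and 153 CPM in WT A to E (log2 fold change -0.64, SE 0.16, adjusted p = 0.0873 in edgeR). The anaphylatoxin receptors C3ar1 and C5ar1 had log2 fold changes of 0.42 (SE 0.20; adjusted p = 0.210 in edgeR) and 0.09 (SE 0.24; adjusted p = 0.835 in edgeR).

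**Figure D5:**
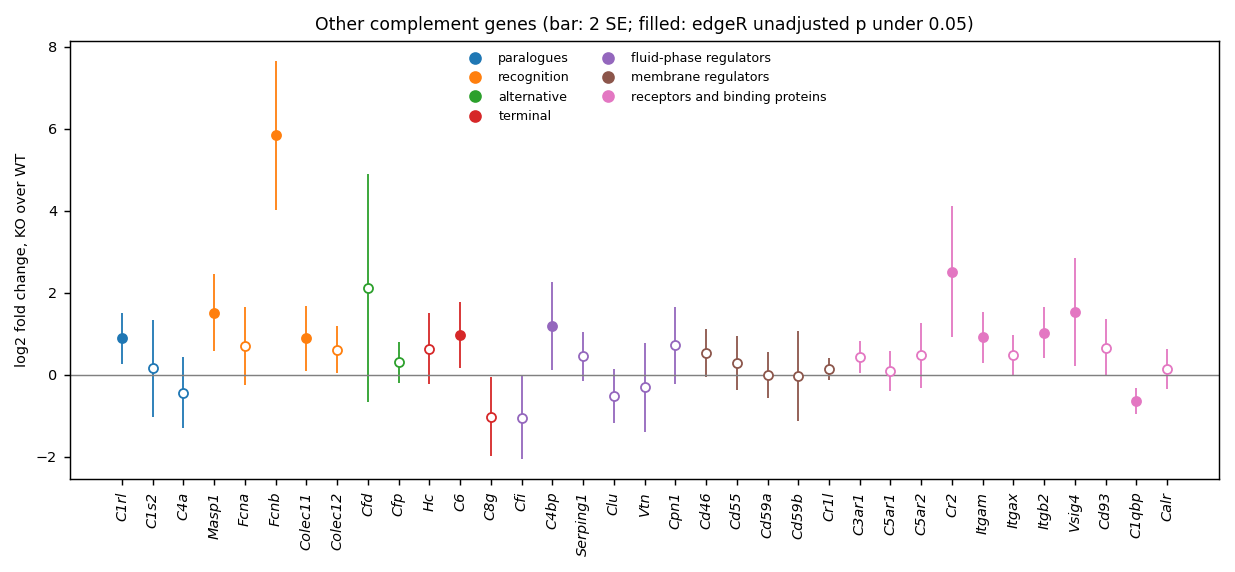
edgeR log2 fold change (KO over WT) of the 35 tested complement genes outside the 9 components, ordered and coloured by role, with bars of 2 SE and filled points at an unadjusted p under 0.05. Most points lie above 0, Fcnb is highest, at few reads in WT tumours, and C1qbp is the filled point below 0.

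The cell makeup of the tumours was read from marker lists. For comparison, 8.57% of all tested genes were higher in KO and 15.5% lower at an unadjusted p under 0.05 in edgeR. No listed gene passed an adjusted p of 0.05, and the lists are not given without WT A to C. Of 10 macrophage markers, 5 were higher in KO tumours and none lower at an unadjusted p under 0.05, with a summed level of 1056 to 1795 CPM in KO and 892 to 1112 CPM in WT tumours and no marker at 0. Their mean log2(CPM + 1) was 6.10 to 6.93 in KO and 5.71 to 6.12 in WT tumours. Of 10 fibroblast markers none differed at that threshold, with a summed level of 4736 to 9793 CPM in KO and 2711 to 9768 CPM in WT tumours. Neutrophil markers were higher for 6 of 8 (310 to 2378 CPM summed in KO, 187 to 1068 in WT), and epithelial markers lower for 3 of 9 tested (2488 to 4874 CPM in KO, 3064 to 8049 in WT). Hepatocyte markers, a check for liver as a source, differed for 0 of 5 tested, with a summed level of 17.5 to 167 CPM in KO and 32.2 to 238 CPM in WT tumours and Apoc3 below 1 CPM throughout. Of 10 interferon-gamma response genes, 1 was higher at an unadjusted p under 0.05. Endothelial markers differed for 1 gene in each direction of 8, mesothelial markers for 0 of 6, and acinar markers for 1 of 3 tested, which was lower. The part of these cell types in the complement values was not tested.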

How the data were processed

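RNA from 11 tumours was made into strand-specific libraries (NEB Next Ultra II Directional) and sequenced as paired reads on a NovaSeq. Per the study's methods and processing notes, the authors demultiplexed with bcl2fastq 2.19, trimmed with Trimmomatic, aligned with HISAT2 2.1.0 to mm10 and counted uniquely mapped reads of quality above 10 over exons with HTSeq 0.11.2. The deposited raw table holds whole-number counts per gene. The deposited normalised table holds a signal, the same counts divided by a single factor per tumour (0.514 to 1.42), and was not used for tests. Unique counting removes reads shared by paralogues or overlapping genes. Group and replicate letter came from the sample titles.

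Symbols, lengths and overlaps came from GENCODE M21 (54165 of 54232 identifiers matched). Counts were tested with edgeR 4.0.16 in R 4.3.3 (TMM, filterByExpr, quasi-likelihood F-test, no covariate, Benjamini-Hochberg over 16536 genes); SE is the absolute log2 fold change over the square root of F. Alternatives were RLE size factors, DESeq2 1.42.0, no filter beyond 1 count, at least 10 counts in every tumour, leaving out each tumour, leaving out WT A to C, a replicate block, the ribosomal RNA share (Gm42418, mt-Rnr1, mt-Rnr2) as a covariate, and a gene length offset (lengths for 99.9% of genes). Correlations used scipy 1.17.1 with 100000 permutations or exact enumeration, two-sided, with a pseudocount of 1 CPM. The components, lists and tests were chosen with earlier results of these data known, so no p is given over a list. A further complement gene that had been planned is not reported here. Genes named were the 9 components, the listed complement genes by role, and the 5 genes most correlated with each of C1qb, C1s1, C3 and Cfb. Nothing in the sources ties equal letters to shared litters or days, and deviations of same-letter tumours correlated at -0.129 to 0.109, so letters were not treated as pairs. No libraries agreed within sampling noise (lowest chi-square per degree of freedom 35.7, KO B and E). On simulated counts with 200 changed genes, edgeR recovered 188 with 6 false calls at a log2 change of 2 (16372 genes), and 21 with 1 false call at a log2 change of 1 (16377 genes). The simulation gave every gene the same dispersion and held no length trend or ribosomal RNA differences. Its rates therefore do not carry over to these tumours. The reads carried no molecular identifiers, so detection floors cover counting error only.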

Additional observations from a re-analysis of the deposited data

Results flagged for a closer look

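The highest or lowest tumour of each genotype was compared with the rest of its group in 26 sets of values, covering the components and ratios between components. In 3 of them its gap to the nearest tumour exceeded Dixon's 95% critical value, where chance gives about 1 in 20, or 1.3 of 26. The ratio of C1qb to C1qa was 0.570 in WT C and 0.891 to 0.956 in WT A, B, D and E. The ratio of C1ra to C1s1 was 0.609 in WT D and 0.271 to 0.358 in WT A, B, C and E. The same ratio was 0.298 in KO C against 0.331 to 0.346 in the other KO tumours, a smaller gap within a tighter group. The cause of these gaps was not tested, and 26.1% of the read-length windows of C1ra are shared with C1rb.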

How the results depend on the processing

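Over the 9 components, 154 of 171 alternative values kept the direction and side of the threshold, 6 passed it in addition and 11 turned direction, all of these for C1qa, C1qb or C2, whose main differences were under 0.2. With RLE size factors, 3 genes were higher and 0 lower, as with TMM. DESeq2 called 568 genes higher and 990 lower in KO tumours, with 3 components and 5 related complement genes; without an expression filter edgeR called 39 and 6, with 1 related gene; with a gene length offset 69 and 28, with 1 related gene. With at least 10 counts in every tumour edgeR called 0 genes in either direction (1183 higher and 2331 lower at an unadjusted p under 0.05), and with the ribosomal RNA share as covariate 0 (722 and 748). Without WT A to C edgeR called 4 higher and 3 lower. The replicate block, for letters that did not pair the tumours, gave 8 higher and 1 lower with 1 related gene, and C1qa at -0.0166. Leaving out each tumour in turn gave 0 to 608 genes higher and 0 to 1248 lower, 0 to 3 components and 0 to 5 related genes, the highest counts without WT E, with 203 higher and 651 lower without WT D. In these fits C1qa ranged from -0.12 to 0.19, C1qb from -0.0176 to 0.35, C1qc from 0.03 to 0.36, C1ra from 0.70 to 1.17, C1s1 from 0.85 to 1.35, C4b from 1.25 to 1.77, C2 from -0.23 to 0.58, C3 from 0.96 to 1.76 and Cfb from 1.21 to 1.86 (log2). Without WT A to C, the correlation of C1qb with C1s1 was 0.83, with C3 0.63 (-0.11 in all tumours) and with the macrophage markers 0.93. The cause of these shifts was not tested. Lowly counted genes such as Fcnb, Cr2 and Cfd rested on 0 to 8 reads in most WT tumours, where depth limits any fold.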
